A study of Mus musculus with 6 samples.

Results

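A set of 10 imprinted growth genes was followed in 3T3-L1 adipocytes in which Rbms1 had been silenced. The set was chosen by the counts of Mest, which was lost in the knockdown, and it holds Mest, Peg3, H19, Igf2, Igf2r, Dlk1, Meg3, Cdkn1c, Ndn and Plagl1, out of 45706 genes in the count table. All 10 had at least 1 read count somewhere, and 8 of them passed the filter on low counts and were among the 11440 genes tested. Meg3 and Cdkn1c did not pass. Because the loss of Mest chose the set, the values of Mest are given as a description with no test.

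3T3-L1 is a mouse embryo fibroblast line that turns into fat cells under an adipogenic cocktail, here IBMX, insulin, dexamethasone and rosiglitazone. Total RNA depleted of ribosomal RNA was sequenced on day 7 of differentiation from 3 scrambled control samples, labelled WT, and 3 RBMS1 knockdown samples, labelled RBMS1KD. Both kinds of cells stably expressed a short hairpin RNA, scrambled or against Rbms1, after lentiviral transduction, with puromycin as the selection. The sources used here do not say how many transductions the 3 biological replicates of a group go back to, so p-values measure the spread between these samples. A bulk sample cannot tell fewer cells of a type from less RNA per cell.

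An imprinted gene is read mainly from the copy of 1 parent, because the other copy was marked in the egg or the sperm, usually by DNA methylation at a control region. Such genes often sit in clusters, and many of them act on growth in the embryo, where paternally expressed genes tend to promote growth and maternally expressed genes tend to restrain it. In fat, Mest is known to rise as adipocytes enlarge, and Dlk1 is a marker of preadipocytes that falls during differentiation. The counts sum over both parental copies, so they do not show which copy was read.

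The regions just before the annotated starts of Mest, Igf2 and Dlk1, 3 genes whose knockdown samples all lay below all controls, are shown because DNA methylation falls on CG dinucleotides. The knockdown samples of Plagl1 also all lay below all controls, but its window, with 19 CG dinucleotides, overlaps an exon and is not shown. Each line holds the 250 bases before a RefSeq start on GRCm38.p6, written 5′ to 3′ on the strand of the gene, with CG dinucleotides in capitals.
Mest, chr6:30737800-30738049, plus strand: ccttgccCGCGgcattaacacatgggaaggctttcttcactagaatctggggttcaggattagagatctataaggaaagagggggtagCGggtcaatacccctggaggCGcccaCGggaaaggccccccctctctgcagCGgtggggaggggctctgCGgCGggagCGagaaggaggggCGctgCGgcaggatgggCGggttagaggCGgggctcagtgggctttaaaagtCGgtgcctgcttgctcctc
Igf2, chr7:142657497-142657746, minus strand: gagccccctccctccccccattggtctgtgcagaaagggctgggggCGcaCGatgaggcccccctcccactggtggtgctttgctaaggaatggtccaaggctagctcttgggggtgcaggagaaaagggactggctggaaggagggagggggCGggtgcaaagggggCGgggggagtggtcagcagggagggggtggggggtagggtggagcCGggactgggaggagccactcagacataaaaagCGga
Dlk1, chr12:109452573-109452822, plus strand: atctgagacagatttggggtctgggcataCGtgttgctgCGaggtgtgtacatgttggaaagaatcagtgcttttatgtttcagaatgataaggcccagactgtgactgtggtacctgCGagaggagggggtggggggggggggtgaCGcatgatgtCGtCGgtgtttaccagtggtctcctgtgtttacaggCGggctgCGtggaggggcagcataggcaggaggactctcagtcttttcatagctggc

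These windows were picked from 3 for Mest, 4 for Igf2 and 1 for Dlk1 as those free of annotated exons, and a further Igf2 window free of exons was passed over because it holds 1 CG dinucleotide. The Mest window holds 14 CG dinucleotides, against 8 for Dlk1 and a median of 6 over 32851 such windows of 27025 genes. Both genes with several starts varied with the window, as the 3 windows of Mest hold 7, 14 and 14 and the 4 of Igf2 hold 1, 10, 22 and 6, the last being the one shown. The files do not show which start was used. The ratio of observed to expected CG was 0.608 in the Mest window shown, 0.501 in that of Dlk1 and 0.25 in that of Igf2, so the first pair lay above the median of all windows (0.373) and Igf2 below it. In the table of promoters 8 of the 10 genes were matched, with 14 windows. The window of Igf2r was the richest of the 14, with 27 CG dinucleotides. The sequence GGGGCCCC, which reads the same on both strands and was searched as a G-rich site of the kind bound by the zinc finger protein PLAGL1, was found in 1 of the 14 windows, that of Peg3, and in 0.889% of all windows. These are matches of letters in a window, not measured sites.

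Mest, H19 and Igf2 each host a microRNA gene, and the mature sequences are shown because a fall of the host is often read as a fall of its microRNA. The seed, bases 2 to 8, is in capitals.
mmu-miR-335-5p, inside Mest: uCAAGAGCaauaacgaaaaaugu
mmu-miR-675-5p, inside H19: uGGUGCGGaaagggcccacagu
mmu-miR-483-3p, inside Igf2: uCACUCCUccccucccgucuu
The gene rows Mir335, Mir675 and Mir483 held 0 counts in each of the 6 samples. Libraries of this kind retain few RNAs as short as a mature microRNA, so these rows do not bear on the microRNAs.

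Total counts ranged from 3142695 in scrambled control replicate 2 to 11073098 in RBMS1 knockdown replicate 3. Scrambled control replicate 2 stands apart: 43.0% of its counts came from genes derived from ribosomal RNA, against 8.12% to 17.8% in the other samples. Levels are given as CPM, counts per 1000000 of a library size scaled by a TMM factor (0.642 to 1.23), and an undetected gene could have reached 0.22 to 1.49 CPM in 1 sample, the level of 3 counts. Rbms1 itself was at 113, 102 and 99.6 CPM in the controls and at 49.2, 61.4 and 84.0 CPM in the knockdown. Rbms1 was lower in each knockdown sample, but its log2 fold change of -0.69 (standard error 0.20) did not pass (adjusted p = 0.185, edgeR with Benjamini-Hochberg adjustment, as for every adjusted p below unless DESeq2 is named). The labels give the cell type as fibroblast and the treatment as adipogenic differentiation, and all 20 adipocyte markers looked at were detected in every sample.

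Mest encodes a protein of the alpha/beta hydrolase fold in the endoplasmic reticulum and is expressed from the paternal copy. Mest (ENSMUSG00000051855) lies on chromosome 6 of GRCm38 from 30723547 to 30748465, with 18 blocks of exons. It had 59, 9 and 11 counts in scrambled control replicates 1, 2 and 3, or 9.46, 4.47 and 1.89 CPM, and 0 counts in each RBMS1 knockdown sample. The 95% Poisson intervals, which cover counting error only, were 7.20 to 12.2 CPM in replicate 1, 2.04 to 8.48 CPM in replicate 2 and 0.945 to 3.39 CPM in replicate 3. Mest was thus low in the control cells, with most of its counts in replicate 1, and was not detected in any knockdown library. At the level of the lowest control, the size of the knockdown libraries corresponds to 13.2, 16.2 and 25.8 counts. With each knockdown library set at the floor of 3 counts, the mean of Mest was at least 15.8-fold lower. Leaving out scrambled control replicate 1 brought this bound to 9.52-fold. Mest passed the filter only through the control samples.

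Few genes shared this pattern. Of 19406 genes with any count, 24 (0.124%) had 0 counts in each knockdown sample and at least 1 in each control, and 145 (0.747%) showed the reverse. Mest, with 79 counts, had the most control counts of the 24, followed by Tom1l1 (44), an endosomal sorting adaptor, Prkd1 (27), a protein kinase D, P3h2 (18), a collagen prolyl 3-hydroxylase, and Zkscan2 (15), a zinc finger protein. This order, which ranks Mest on the values that chose the set, rests on scrambled control replicate 1, since Mest had 59, 9 and 11 counts in the controls and Tom1l1 had 11, 10 and 23. In the other control libraries Tom1l1 had more counts than Mest. With at least 5 counts asked of each control, Mest and Tom1l1 were the 2 genes left. With at least 5 asked of each knockdown sample, 3 genes of the reverse pattern were left. The libraries of the knockdown were deeper than those of the control, so the 2 directions do not compare on equal terms. With fewer samples to meet the condition the count of 24 rose. It reached 107 when scrambled control replicate 2 was left out, 59 without scrambled control replicate 3 or RBMS1 knockdown replicate 3, and 49 without scrambled control replicate 1 or RBMS1 knockdown replicate 2.

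**Figure D1:**
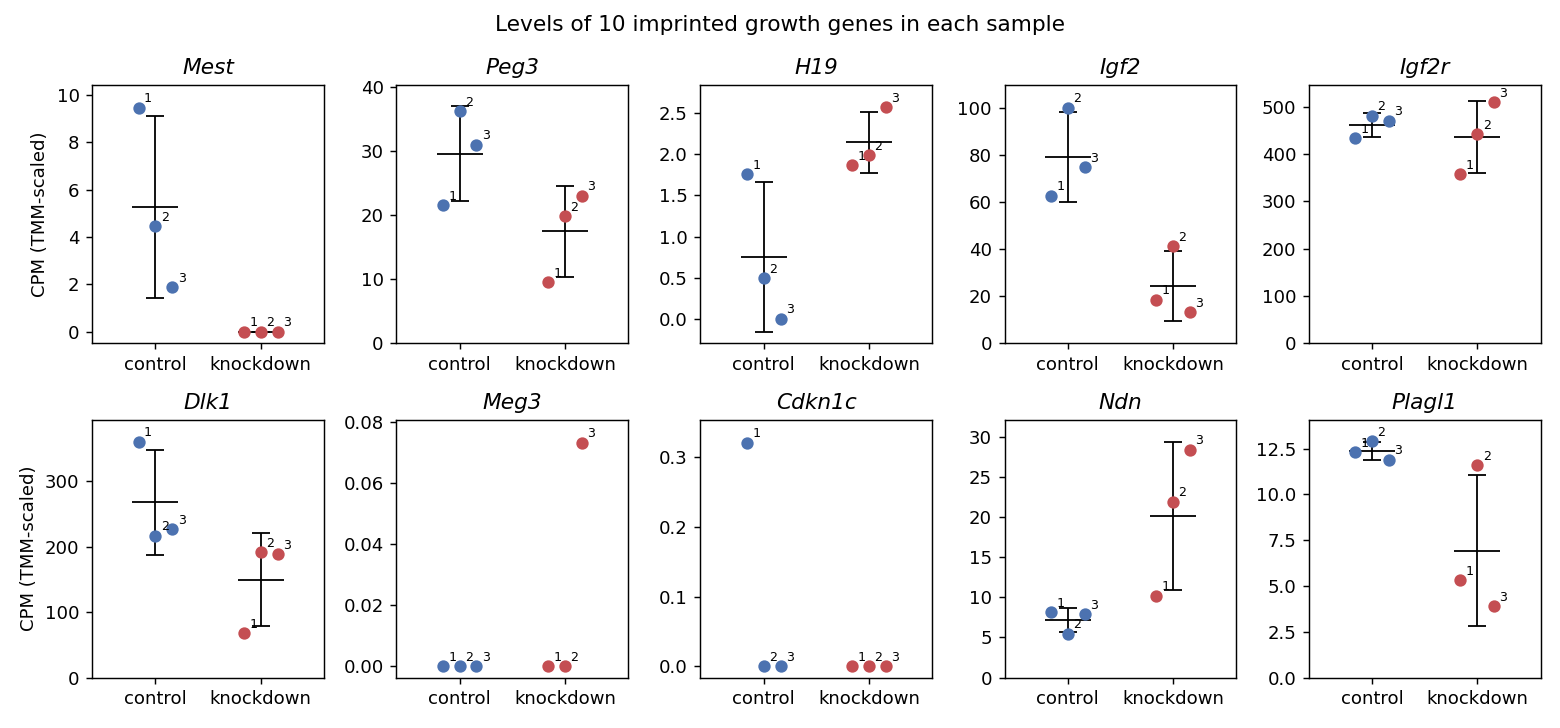
Level of each of the 10 genes in CPM (linear axes, which differ between panels) in scrambled control (blue) and RBMS1 knockdown (red) samples, with replicate numbers beside the points and, for the 8 tested genes, bars for the mean and SD of 3 samples. Mest is at 0 in each knockdown sample, Igf2, Dlk1 and Plagl1 lie below all controls, H19 and Ndn lie above all controls, and Peg3 and Igf2r overlap.

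The growth factor and its clearance receptor come next by role. Igf2, insulin-like growth factor 2, is a paternally expressed ligand that drives growth through the IGF1 receptor. Igf2 (ENSMUSG00000048583, chromosome 7 from 142650766 to 142666816) was at 62.7, 100 and 74.7 CPM in the controls and 18.4, 41.1 and 13.1 CPM in the knockdown, and the groups did not overlap. The knockdown samples thus held between 16.5% and 52.0% of the control mean. Its log2 fold change was -1.71 (standard error 0.38), with an edgeR adjusted p of 0.108, just over the threshold of 0.1. DESeq2 gave -1.70 with an adjusted p of 0.000617, and over 16 alternative settings the adjusted p ranged from 0.000617 to 0.363. The annotation places a second gene, Gm49394, over 62.8% of the exon bases of Igf2 on the same strand. That gene has no row in the deposited table, and the Igf2 counts were whole numbers in every sample.

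Igf2r is the maternally expressed cation-independent mannose 6-phosphate receptor, which binds IGF2 and takes it to the lysosome. Igf2r (ENSMUSG00000023830, chromosome 17 from 12682406 to 12769664) was at 434, 481 and 471 CPM in the controls and 358, 442 and 510 CPM in the knockdown. The groups overlapped, and Igf2r had a log2 fold change of -0.08 with a standard error of 0.17 (adjusted p = 0.895, edgeR). Its sign turned with the scaling, to 0.31 by library sizes alone, a scaling that raised the median of all tested genes by 0.37, and to 0.05 without RBMS1 knockdown replicate 1. Airn, the noncoding RNA that crosses Igf2r on the opposite strand and silences it on the paternal copy, was at 8.34, 6.45 and 11.5 CPM in the controls and 6.33, 13.2 and 8.88 CPM in the knockdown.

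H19 is the maternally expressed noncoding RNA next to Igf2, with which it shares enhancers and a methylated control region. H19 (ENSMUSG00000000031, chromosome 7 from 142575529 to 142578143) had 11, 1 and 0 counts in the controls and 13, 17 and 35 in the knockdown. The levels were 1.76, 0.496 and 0 CPM against 1.87, 1.99 and 2.57 CPM, so the groups did not overlap, but the highest control lay next to the lowest knockdown sample. The log2 fold change was 1.37 (standard error 0.82) and did not pass, with an edgeR adjusted p of 0.536. It moved between 0.70 and 3.85 as single samples were left out. H19 passed the filter through all 3 knockdown samples and 1 control. Igf2 and H19 thus lay on opposite sides of the controls in these samples, with Igf2 lower and H19 higher in each knockdown sample, though neither passed the edgeR threshold. A link between them was not tested.

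**Figure D2:**
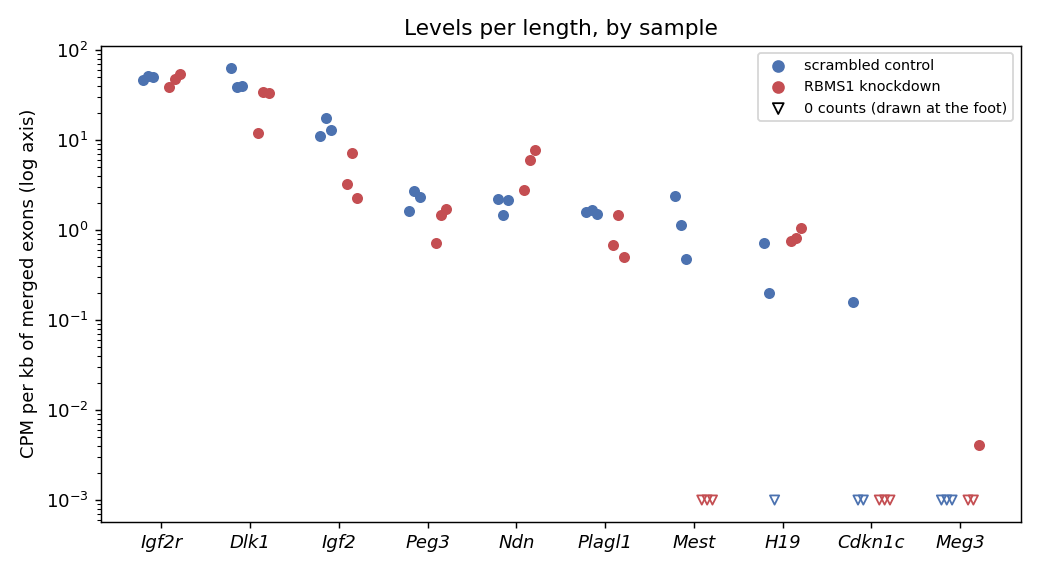
Levels per kilobase of merged exons (log axis) of the 10 genes in each sample, scrambled control in blue and RBMS1 knockdown in red, with open triangles at the foot for 0 counts. Igf2r and Dlk1 lead at 49.6 and 47.5 CPM per kb in the control mean, and Meg3 and Cdkn1c are at the floor of detection.

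Per kilobase of merged exons, Igf2r (49.6 ± 2.64 CPM per kb, SD, n = 3) and Dlk1 (47.5 ± 14.2) were the highest of the 10 in the controls and overlapped. Igf2 followed at 13.8 ± 3.35 and overlapped neither Dlk1 nor Peg3. Peg3 (2.22 ± 0.561), Ndn (1.94 ± 0.406), Plagl1 (1.58 ± 0.0661) and Mest (1.34 ± 0.975) formed a group in which each overlapped the next. H19 stood at 0.306 ± 0.370 and overlapped Mest. Set among the tested genes with an annotated length, Igf2r was at percentile 94.2, Igf2 at 78.6 and Mest at 16 in the control mean. With the longest transcript as the length, Dlk1 (57.7 CPM per kb) came before Igf2r (52.0).

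Dlk1 encodes a membrane protein with epidermal growth factor repeats that restrains adipogenesis. Dlk1 (ENSMUSG00000040856, chromosome 12 from 109452823 to 109463336) was at 361, 217 and 227 CPM in the controls and 67.7, 192 and 189 CPM in the knockdown. Each knockdown sample lay below each control, by a small gap in replicates 2 and 3 and by a wide one in replicate 1. The log2 fold change was -0.84 (standard error 0.36) and did not pass, with an edgeR adjusted p of 0.388, and it was -0.49 without RBMS1 knockdown replicate 1. Meg3, the maternally expressed noncoding RNA that follows Dlk1 in the same cluster (chromosome 12 from 109541001 to 109571726), had 1 count in all 6 samples together, in RBMS1 knockdown replicate 3. Of the other genes of that cluster, Rtl1 had 7, 1 and 6 counts in the controls and 0, 2 and 11 in the knockdown, and Begain had 10, 2 and 0 against 0, 0 and 4. Rian had 6 counts in all, Mirg had 1 and Dio3 had 0. Dlk1 was thus the only one of the genes listed for this cluster to pass the filter.

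Markers of the cell types these cultures could hold were summed in each sample. The summed level of the 20 adipocyte markers was 67400 to 81400 CPM in the controls and 42300 to 90900 CPM in the knockdown, with 17 of 19 tested markers below 0. Scd1, which encodes stearoyl-CoA desaturase, took 50.3% to 67.2% of that sum, with 61100 CPM in RBMS1 knockdown replicate 1. Over the other 19 markers, a sum formed after the values were seen, the controls were at 32500 to 35100 CPM and the knockdown samples at 29800, 16700 and 19100 CPM, so each knockdown sample lay below each control. Retn, the gene of the hormone resistin, was the 1 of 19 called (log2 fold change -1.67, standard error 0.36, adjusted p = 0.0967, edgeR), or 5.26% beside 1.22% of all tested genes. It lies on chromosome 8, where the median of 624 tested genes was -0.38 and 90.1% lay below 0. That call was lost in 9 of 16 other settings, among them the omission of any single sample but RBMS1 knockdown replicate 1, with adjusted p between 0.000207 and 0.358. The 18 markers of undifferentiated fibroblasts summed to 13200 to 15400 CPM in the controls and 8460 to 17800 CPM in the knockdown, with 10 of 16 tested below 0 and none called. RBMS1 knockdown replicate 1, the sample lowest in Dlk1, Peg3 and Igf2r, had the lowest fibroblast sum of the 6 samples. Its adipocyte sum was the highest of the 6 with Scd1, and without Scd1 it was the highest of the knockdown samples and below every control. Igf2 and Plagl1 were instead lowest in RBMS1 knockdown replicate 3, which had the highest fibroblast sum, 17800 CPM. The 12 proliferation markers summed to 72 to 202 CPM in the controls and 56.8 to 155 CPM in the knockdown, with 11 of 12 below 0 and none called. The highest of these sums was in scrambled control replicate 1, which also had the most Mest and Dlk1 but, of the controls, the least Igf2, Peg3 and Igf2r. The part of these markers in the values of Mest, Igf2 and Dlk1 was not tested.

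The remaining genes encode regulators of transcription and the cell cycle. Plagl1, a paternally expressed zinc finger transcription factor that acts on other imprinted genes, lies on chromosome 10 from 13060504 to 13131694. Its levels were 12.3, 12.9 and 11.9 CPM in the controls and 5.32, 11.6 and 3.89 CPM in the knockdown. The controls were close together, while RBMS1 knockdown replicate 2 fell just below them and the other knockdown samples well below. The log2 fold change was -0.84 (standard error 0.38) and the edgeR adjusted p was 0.415. Leaving out the highest knockdown sample, replicate 2, moved it to -1.42, and leaving out the lowest, replicate 3, moved it to -0.54. Igf2 had the same order within the knockdown samples, highest in replicate 2 and lowest in replicate 3, as did Kcnq1ot1 of the Cdkn1c cluster. The controls were ordered differently, with Plagl1 lowest in replicate 3 and Igf2 lowest in replicate 1. A link between these genes was not tested.

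Peg3, a paternally expressed zinc finger gene, lies on chromosome 7 from 6703892 to 6730431. It was at 21.5, 36.2 and 31.0 CPM in the controls and 9.49, 19.8 and 23.0 CPM in the knockdown. The groups overlapped, and the log2 fold change of -0.75 (standard error 0.33) did not pass (adjusted p = 0.391, edgeR). Leaving out RBMS1 knockdown replicate 1, the lowest sample, gave -0.45. Ndn encodes necdin, a protein of the MAGE family that restrains cell growth, from the paternal copy on chromosome 7 (62346569 to 62350262). It went the other way, from 8.17, 5.46 and 7.91 CPM in the controls to 10.2, 21.9 and 28.4 CPM in the knockdown. All knockdown samples lay above all controls, with replicate 1 near them and replicate 3 at 396% of the control mean. The log2 fold change was 1.46 (standard error 0.36), with an edgeR adjusted p of 0.136. DESeq2 gave an adjusted p of 0.0208 for Ndn, and the range over 16 settings was 0.0086 to 0.41. Cdkn1c, a maternally expressed inhibitor of cyclin-dependent kinases, had 2 counts in scrambled control replicate 1 and 0 in the other samples, so no fold is given for it or for Meg3.

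Of the 7 tested members other than Mest, edgeR called 0 at an adjusted p of 0.1 or less, where it called 1.22% of all tested genes (0.909% lower and 0.315% higher, and 0.463% under 0.05). DESeq2 called 2 of them, Igf2 and Ndn, beside 3.20% of all genes to which it gave an adjusted p. An unadjusted edgeR p under 0.05 was found in 4 of the 7, against 12.4% of all tested genes. Groups did not overlap in 5 of the 7, with 3 lower and 2 higher in the knockdown, against 18.5% of all tested genes (9.55% lower and 8.96% higher). These counts come from the contrast that chose the set, and nothing is read from them. For 3 against 3 samples the smallest two-sided p of an exact permutation test is 0.1, and none was run.

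Other imprinted genes were taken from a list of 81 names, of which 74 were in the table, 58 were detected and 33 were tested. Their median log2 fold change was 0.00, the same as that of all tested genes, with 16 above 0 and 17 below. Groups did not overlap in 12 of the 33 (36.4%, with 4 higher and 8 lower in the knockdown), against 18.5% of all tested genes, and 9 (27.3%) had an unadjusted p under 0.05, against 12.4%. Grb10 was the 1 gene called, or 3.03% of the 33 beside 1.22% of all tested genes. It encodes an adaptor that restrains signaling from the insulin and IGF1 receptors and is a maternally expressed gene in most tissues. Grb10 (chromosome 11 from 11930508 to 12038683) was at 21.6, 14.4 and 13.6 CPM in the controls and 1.29, 3.74 and 1.25 CPM in the knockdown, a wide gap between the groups. Grb10 had a log2 fold change of -2.99 with a standard error of 0.45 (adjusted p = 0.0333, edgeR). It passed the filter through the controls, as RBMS1 knockdown replicates 1 and 3 lay below the filter level of 1.64 CPM. The call was lost without scrambled control replicate 1, 2 or 3 (adjusted p = 0.132, 0.106 and 0.107, edgeR), while the log2 fold change stayed between -3.68 and -2.67 over 16 settings. Dcn, the gene of the matrix proteoglycan decorin, imprinted in the placenta, was picked out after its values were seen. It was at 278, 220 and 281 CPM in the controls and 85.4, 149 and 172 CPM in the knockdown (log2 fold change -0.94, standard error 0.25, adjusted p = 0.15, edgeR, 0.0199 to 0.417 over 16 settings).

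**Figure D3:**
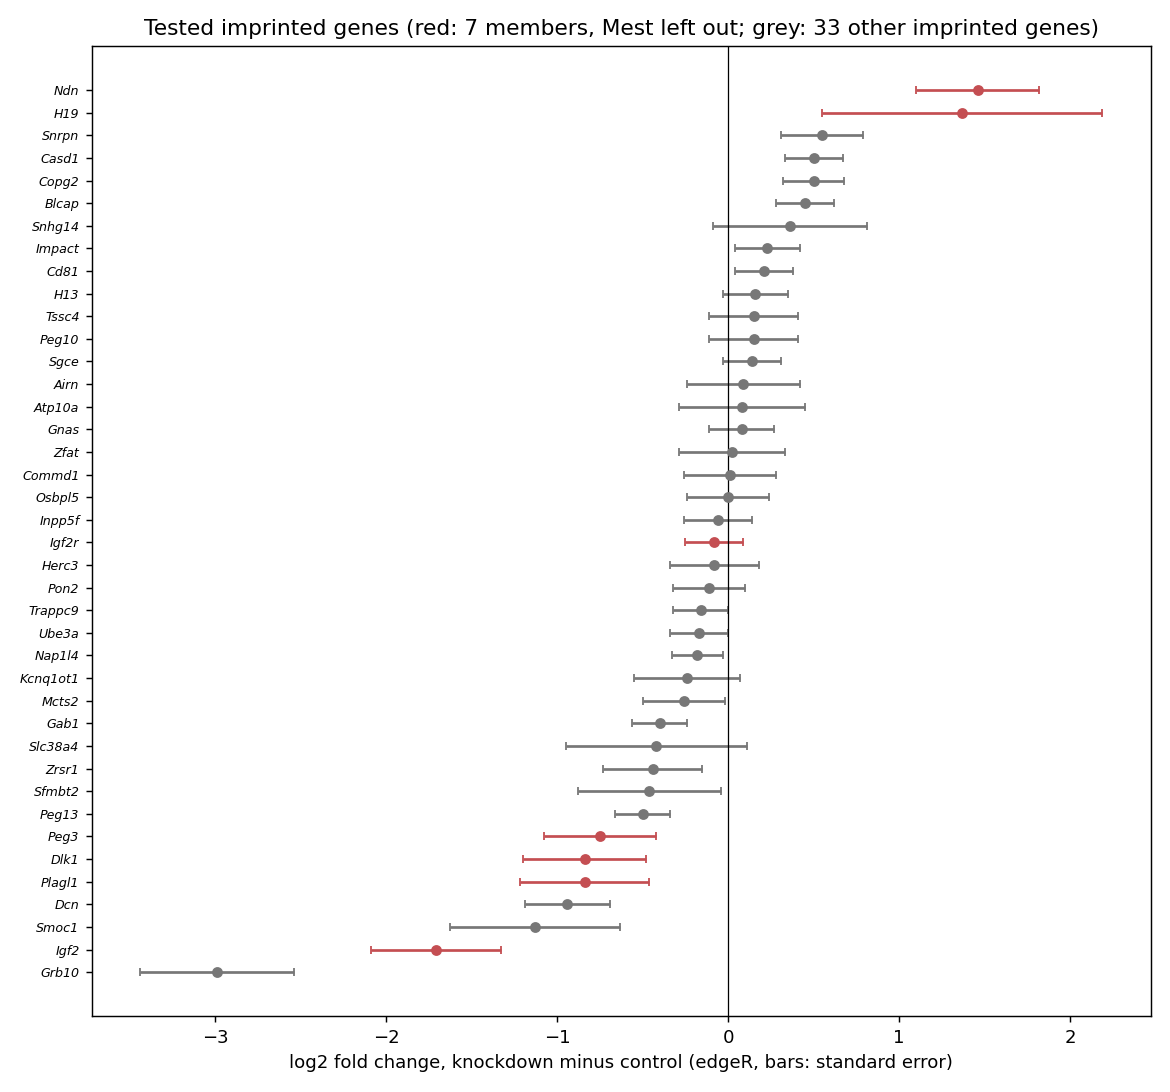
Log2 fold change (RBMS1 knockdown minus scrambled control, edgeR) with standard error for 7 tested members (red, Mest left out because it has 0 counts in the knockdown) and 33 other imprinted genes (grey). Grb10 at -2.99 and Igf2 at -1.71 lie lowest, Ndn at 1.46 and H19 at 1.37 lie highest, and most other imprinted genes lie close to 0.

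Cluster mates of the members mostly showed small differences. In the cluster of Cdkn1c on chromosome 7, the noncoding RNA Kcnq1ot1 was at 154, 163 and 114 CPM in the controls and 92.3, 193 and 79.0 CPM in the knockdown, which overlapped. The 5 tested genes there, Kcnq1ot1, Cd81, Tssc4, Nap1l4 and Osbpl5, had log2 fold changes from -0.24 to 0.21, and none was called. In the wider cluster of Ndn, Snrpn, which encodes a splicing factor subunit, was at 19.7, 11.9 and 19.3 CPM in the controls and 30.3, 23.1 and 21.9 CPM in the knockdown. Snrpn was higher in each knockdown sample, like Ndn, but did not pass (log2 fold change 0.55, standard error 0.24, adjusted p = 0.391, edgeR). The log2 fold changes of Ube3a, Snhg14 and Atp10a were -0.17, 0.36 and 0.08, with overlapping groups. The other 4 listed genes of that cluster did not pass the filter and did not share 1 direction. Snurf, in the same locus as Snrpn, had 12, 0 and 10 counts in the controls and 0, 0 and 5 in the knockdown, and Mkrn3 had 2, 2 and 1 against 2, 7 and 8. Magel2 had 0 counts in the controls and 0, 1 and 5 in the knockdown, and Peg12 had 0 against 0, 3 and 3. None of the listed genes in the clusters of Peg3 and of Igf2 and H19 passed the filter.

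Genes within 500 kb of a member were examined by position. Of 299 such genes in the table, 98 were detected and 48 were tested, with a median log2 fold change of 0.00 (23 above 0 and 25 below). None was called by edgeR (1.22% of all tested genes were), and 7 of the 48 had an unadjusted p under 0.05, against 12.4% of all tested genes. In 6 of the 48 the knockdown lay above all controls and in 4 below, against 8.96% and 9.55% of all tested genes. DESeq2 called 1, Tmem209, beside 3.20% of all genes to which it gave an adjusted p. Around Mest, 8 of 11 tested neighbours lay above 0 and 3 below, with a median of 0.31. Over the 567 tested genes of chromosome 6 the median was 0.19 and 29.5% lay below 0, a share close to that of the neighbours. An unadjusted p under 0.05 was found for 4 of the 11, against 12.4% of all tested genes, and 4 of the 11 (Ube2h, Klhdc10, Tmem209 and Copg2) lay above all controls in each knockdown sample, against 8.96%. Both shares are set against all tested genes, and those of chromosome 6 alone, with its higher median, were not taken. Chromosomes 7, 10, 11, 12 and 17, which carry the other members and Grb10, had medians of -0.03, 0.02, -0.08, 0.06 and -0.09.

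Copg2, which encodes a coat protein subunit of transport vesicles, overlaps the end of Mest on the opposite strand, over 23.1% of the exon bases of Mest. It was at 68.6, 68.5 and 74.7 CPM in the controls and 124, 86.7 and 88.1 CPM in the knockdown (log2 fold change 0.50, standard error 0.18, adjusted p = 0.277, edgeR). Copg2 was higher in every knockdown sample, in the libraries where Mest was at 0. The strand setting of the counting is not given in the sources used here, and the kit marks strand. Cep41, a gene of the cilium that ends 29798 bases before Mest, was at 9.62, 6.45 and 5.85 CPM in the controls and 15.4, 13.6 and 9.54 CPM in the knockdown (log2 fold change 0.79, standard error 0.29, adjusted p = 0.303, edgeR). Tmem209, which encodes a protein of the nuclear envelope, was at 38.8, 40.2 and 36.5 CPM against 52.2, 60.3 and 64.4 CPM. Its groups were well apart (log2 fold change 0.62, standard error 0.15, adjusted p = 0.136, edgeR, 0.0462 to 0.404 over 16 settings). Ube2h, Klhdc10 and Zc3hc1, which also lie before Mest, had log2 fold changes of 0.30, 0.34 and 0.13. On the far side, Lincpint and 5330406M23Rik lay above 0 (0.52 and 0.31), and Gm13835, Gm37728 and 2210408F21Rik lay below (-1.06, -0.54 and -0.32).

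**Figure D4:**
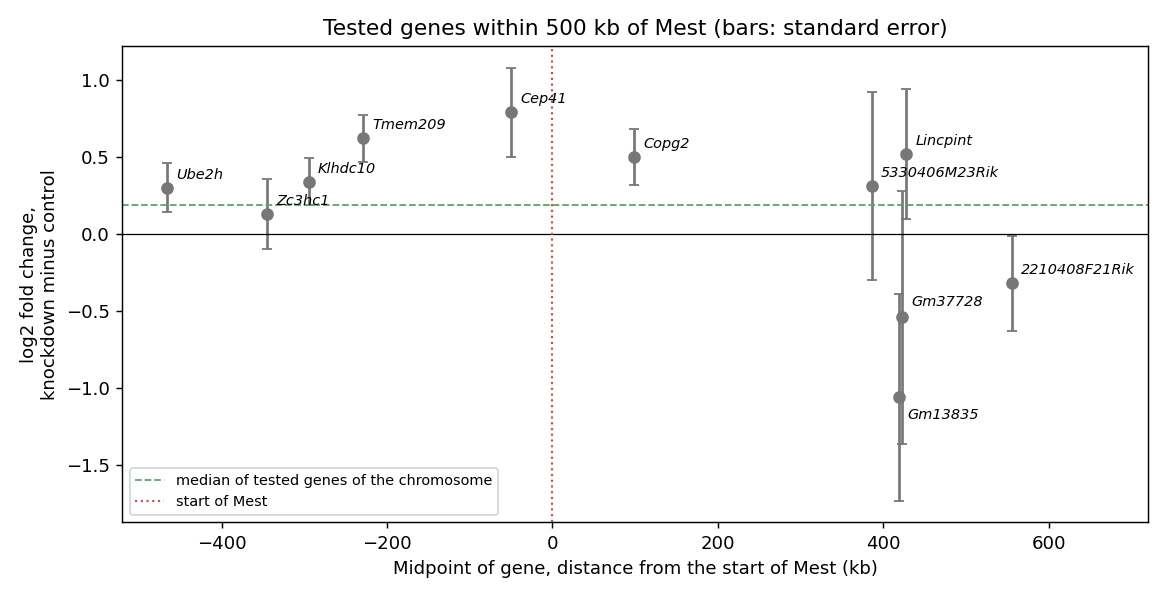
Log2 fold change (RBMS1 knockdown minus scrambled control) with standard error of the 11 tested genes within 500 kb of Mest, by distance of the gene's midpoint from the start of Mest in kb (the limit of 500 kb is to the nearer end). The nearest genes, Cep41 and Copg2, lie at 0.79 and 0.50, above the median of 0.19 for the chromosome (dashed line), and none of the 11 passed the threshold.

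Genes that write, read or protect imprints were described as a list of 25, from DNA methyltransferases to zinc finger proteins of imprinted loci. Of these, 21 were tested, with a median log2 fold change of -0.02 (8 above 0 and 13 below), and edgeR and DESeq2 called none. An unadjusted p under 0.05 was found for 1 of the 21, against 12.4% of all tested genes. That gene, Tet1, encodes an enzyme that oxidises 5-methylcytosine. Tet1 had a log2 fold change of -0.95 (adjusted p = 0.298, edgeR), with each knockdown sample below each control. Dnmt1, the maintenance DNA methyltransferase, Uhrf1, its partner, and Dnmt3a had log2 fold changes of 0.10, -0.02 and -0.07, with overlapping groups. Zfp57, a protector of methylated imprints, had 102 counts in all samples together and overlapping groups.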

How the data were processed

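Gene expression was compared between 3 scrambled control and 3 RBMS1 knockdown samples of 3T3-L1 adipocytes. Per the labels, the authors used Trim Galore 0.6.7, STAR 2.7.10a and Salmon 1.9.0 with the GRCm38 genome. What they deposited is a table of estimated counts for each gene and sample, not normalized. The annotation release and the strand setting are not given in the sources used here. The values were rounded to whole numbers. Differential expression was tested with edgeR 4.0.16 under R 4.3.3 (filterByExpr, TMM, estimateDisp, glmQLFit with the later quasi-likelihood estimate, glmQLFTest) on condition alone, over all 11440 genes passing the filter, with Benjamini-Hochberg adjustment. A gene was called at an adjusted p of 0.1 or less. Standard errors are the log2 fold change divided by the root of the F statistic. Positions, exon lengths and overlaps came from GENCODE M21 (GRCm38), which gave a length for 11402 tested genes. Promoter and microRNA sequences came from RefSeq. Intervals and the floor of 3 counts cover counting error only.

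The members and lists were chosen with earlier results of these data known. The genes named are the 10 members, Rbms1, tested genes of the members' clusters, called genes of the lists, the neighbours of Mest and the 5 genes with the most control counts among those lost like Mest. Dcn, Tet1, Dnmt1, Uhrf1, Dnmt3a, Zfp57, Scd1, Sod2 and Fuca2, and the genes of the Dlk1 and Ndn clusters that did not pass the filter, were named outside this rule, after their values were seen. Alternatives were DESeq2 1.42.0, limma-voom (limma 3.58.1), RLE factors, library sizes alone, library sizes without genes derived from ribosomal RNA, 2 other filters, unrounded counts, a replicate block and each sample left out. The later quasi-likelihood estimate (140 genes called) was taken over the earlier one (122), which the installed edgeR uses by default, after both had been run, so the earlier one is an alternative added after seeing the data, as are the adipocyte sum without Scd1 and the counts of members without Mest. On simulated counts for 11440 genes in this comparison, edgeR recovered 92.9% of genes changed 4-fold and 52.1% of those changed 2-fold, with 11.2% of 160 calls false. In the same simulation 19.1% of 183 DESeq2 calls and 8.78% of 148 limma-voom calls were false.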

Additional observations from a re-analysis of the deposited data

How the results depend on the processing

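Of 528 refits of 33 named genes, 473 kept both the direction and the side of the threshold. The counts of members called below leave out Mest, whose loss chose the set, though its refits are among the 528. The number of other members at an adjusted p of 0.1 or less, 0, became 2 with DESeq2 (Igf2 and Ndn). There 430 genes in all were called in place of 140. It was also 2 with no filter on low counts (again Igf2 and Ndn), where 268 were called. It became 1 with limma-voom (Igf2, 116 genes in all) and 1 by library sizes alone (Ndn, 126 in all). With single samples left out it ranged from 0 to 2. The 2 came without RBMS1 knockdown replicate 1 (Igf2 and Ndn), where 5.94% of genes were called, 696 in all. Leaving out replicate 2 of the knockdown gave 1, Igf2 (38 in all). It was 0 when any other single sample was left out, among them scrambled control replicate 1 (21 genes in all) and 2 (12 in all). The number of other imprinted genes called, 1, became 2 with DESeq2 and with no filter (Grb10 and Dcn), and ranged from 0 to 2 with samples left out. The neighbouring genes called, 0, became 1 with DESeq2 and ranged from 0 to 3 with samples left out, the 3 being Tmem209, Sod2 and Fuca2 in the same fit with 696 calls. The 24 genes lost like Mest became 2 with at least 5 counts in each control and ranged from 33 to 107 with samples left out, since fewer samples set fewer conditions.

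The direction of small differences turned in 22 refits. By library sizes alone Igf2r was at 0.31, Kcnq1ot1 at 0.13, Nap1l4 at 0.19, Osbpl5 at 0.35, Ube3a at 0.21 and 2210408F21Rik at 0.06, beside a shift of 0.37 in the median of all genes. Osbpl5 was at 0.01 with DESeq2, 0.00 with RLE factors and 0.02 with no filter. Airn and 5330406M23Rik were at -0.01 with limma-voom. With samples left out, the ranges were -0.20 to 0.05 for Igf2r, -0.22 to 0.20 for Osbpl5, -0.21 to 0.34 for Airn, -0.21 to 0.38 for Atp10a, -0.07 to 0.69 for Snhg14, -0.52 to 0.65 for 5330406M23Rik and -1.74 to 0.03 for Gm37728. The cause of the turns was not tested.

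The samples share replicate numbers, but deviations of same-numbered samples did not go together (correlations -0.14, 0.08 and -0.03), and not every sample correlated best with its own number. With the number as a block, 39 genes in all were called in place of 140. Of the members other than Mest, only Igf2 was called (adjusted p = 0.0838 from edgeR). Mest, H19, Meg3 and Cdkn1c each had fewer than 80 counts in all, so their levels are the least precise.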
